A study of Mus musculus with 14 samples.

Results

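The 9 genes described here encode transcription factors that direct blood cell lineages: Ikzf1, Ikzf2 and Ikzf3 of the Ikaros family, Spi1 (PU.1), Runx1, Runx3, Tcf7 (TCF1), Lef1 and Bach2. They were chosen by symbol, and all 9 were found among the 51912 genes of the count files. Their transcripts were measured by sequencing total RNA of left liver lobe samples, with 1 library per mouse and 14 mice in all. The AIH group held 5 Tet2fl/fl vav cre+ mice with spontaneous autoimmune hepatitis. The asymptomatic group held 5 mice of the same genotype without disease signs, and the control group held 4 healthy Tet2fl/fl cre- littermates, which the labels call WT although they carry the floxed alleles. All mice were untreated and 20 weeks old. The vav promoter drives Cre across the blood lineages, with known activity in endothelial cells, so hepatocytes of every group should keep Tet2.

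Lineage transcription factors bind short DNA motifs and fix which genes a blood cell can use. Ikaros proteins recruit the NuRD chromatin remodelling complex and are needed for lymphocyte development. PU.1 drives macrophages, granulocytes and B cells, and RUNX proteins act with the partner CBFβ from the first blood stem cells to CD8 T cells. TCF1 and LEF1 maintain naive and memory T cells, and Bach2 holds back effector and plasma cell programmes. In a healthy adult liver these factors are best known from resident macrophages and lymphocytes, while hepatocytes make up most of its RNA. In whole tissue, a different number of cells of a type and a different amount of RNA per cell cannot be told apart.

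Gene counts summed to between 15968380 and 18915729 per library. The share of reads that did not align was 3.23% to 6.54% in AIH, 4.93% to 9.27% in asymptomatic and 4.17% to 4.89% in control livers. Xist and Y-linked counts placed 4 females and 1 male (AIH 4) in AIH, 5 males in the asymptomatic group, and 2 females and 2 males among controls. The AIH libraries carry the last numbers of the library series, so order of preparation, if that is what these numbers give, cannot be told apart from AIH. Hepatocyte markers summed to 87405 to 161874 CPM (counts scaled to library size with edgeR's TMM factors) in AIH, 121663 to 148937 CPM in asymptomatic and 114436 to 156612 CPM in control livers, so the defining genes of the labelled tissue were abundant in every library. Tet2 itself measured 7.87, 7.34, 14.2, 7.55 and 15.4 CPM in AIH livers 1 to 5, 8.06, 9.23, 4.77, 5.49 and 6.52 CPM in asymptomatic livers, and 8.53, 12, 11.5 and 10.8 CPM in controls. The 3 groups overlapped, and whole-gene counts do not show whether the floxed part was deleted.

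Of the 9 genes, 8 passed the filter on low counts and were tested with edgeR's quasi-likelihood test, with Benjamini-Hochberg adjustment over all 14638 genes tested. At an adjusted p under 0.05, 6 were higher and 0 lower in AIH than in control livers, where 15.6% of all genes tested were called higher and 6.08% lower. Against asymptomatic livers the same count was 6 higher and 0 lower, beside 19.1% of all genes called higher and 10.7% lower. In both comparisons the 6 were Ikzf1, Ikzf2, Ikzf3, Spi1, Runx1 and Runx3. These comparisons share the AIH libraries and are not independent. Runx3 passed the filter only through its AIH libraries, so a difference was built into its being tested. Lef1 did not pass and is treated apart.

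On GRCm38, with GENCODE M21 genes, the Ikaros family genes lie at chr11:11685003-11772926 on the plus strand (Ikzf1), chr1:69531214-69687245 on the minus strand (Ikzf2) and chr11:98464902-98546031 on the minus strand (Ikzf3). Spi1 lies at chr2:91082390-91115756 on the plus strand, Runx1 at chr16:92601466-92826149 on the minus strand and Runx3 at chr4:135120652-135177990 on the plus strand. Tcf7 lies at chr11:52252371-52283014 on the minus strand, Lef1 at chr3:131110471-131224356 on the plus strand and Bach2 at chr4:32238804-32586108 on the plus strand. Counts were deposited per gene, so isoforms and promoters of 1 gene are not separated.

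**Figure D1:**
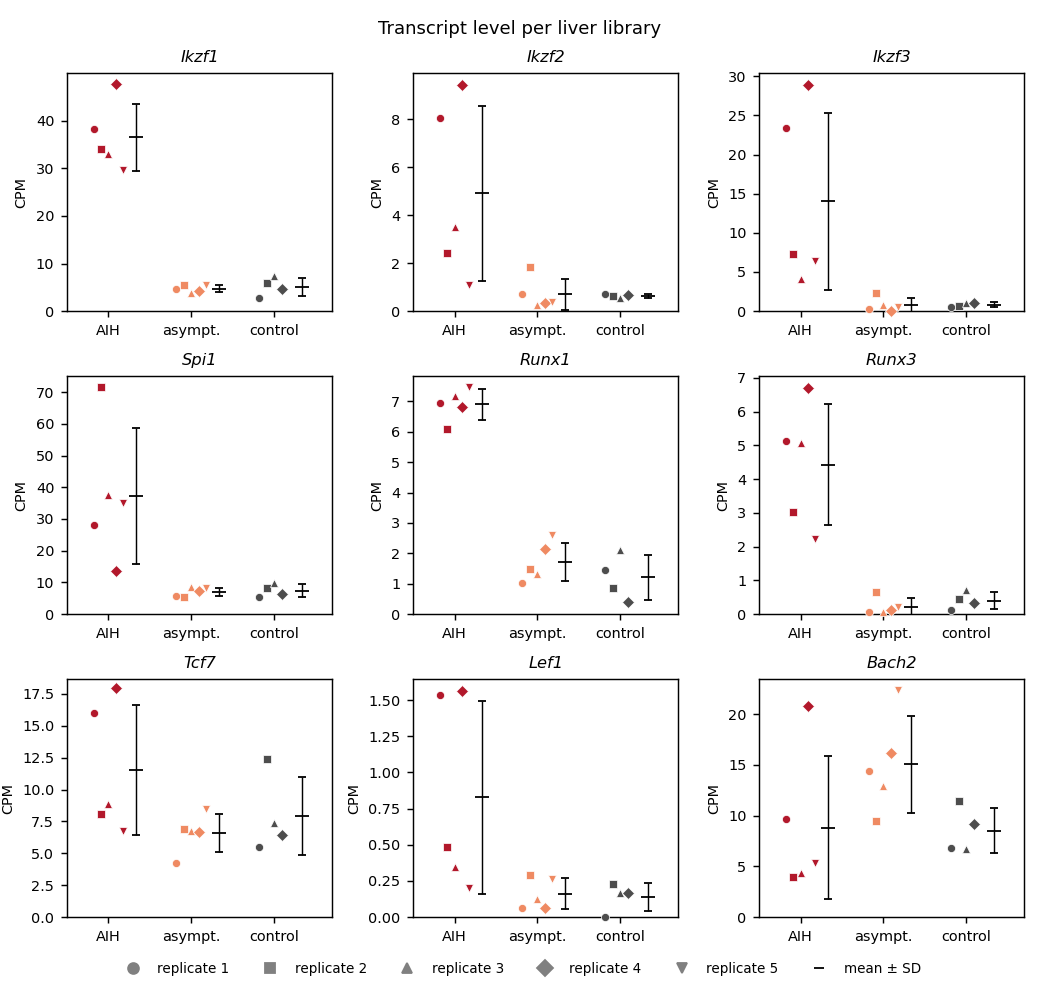
Level of each gene in CPM (vertical axes, each starting at 0) in 5 AIH, 5 asymptomatic and 4 control livers; each point is 1 library, bars give mean ± SD and are cut at 0. For Ikzf1, Ikzf3, Spi1, Runx1 and Runx3 every AIH point lies above all others, while Tcf7, Lef1 and Bach2 overlap between groups.

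Ikzf1 encodes Ikaros, the founding member of its family and a regulator of lymphoid fate. It measured 38.2, 34.1, 33.0, 47.7 and 29.5 CPM in AIH livers 1 to 5, 4.75, 5.53, 3.76, 4.14 and 5.52 CPM in asymptomatic livers, and 2.86, 5.82, 7.30 and 4.58 CPM in controls. The AIH libraries stood well apart from both other groups, which overlapped. The log2 fold change was 2.83 ± 0.25 (SE) against controls (adjusted p = 1.34e-05, edgeR) and 2.94 ± 0.23 against asymptomatic livers (adjusted p = 3.12e-06, edgeR).

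Ikzf3 encodes Aiolos, best known from B cells and activated lymphocytes. Its level was 23.3, 7.24, 4.14, 28.9 and 6.41 CPM in AIH, 0.260, 2.35, 0.816, 0.0646 and 0.532 CPM in asymptomatic and 0.585, 0.622, 1.09 and 1.06 CPM in control livers. AIH 1 and AIH 4 were several times higher than the other AIH livers, yet the lowest AIH library still exceeded the highest of the other groups. Ikzf3 rose by 4.05 ± 0.79 on the log2 scale against controls (adjusted p = 0.0022, edgeR) and by 4.09 ± 0.72 against asymptomatic livers (adjusted p = 0.000832, edgeR).

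Ikzf2 encodes Helios, found in many regulatory T cells. Its level was 8.07, 2.43, 3.50, 9.46 and 1.11 CPM in AIH, 0.715, 1.82, 0.251, 0.323 and 0.399 CPM in asymptomatic and 0.701, 0.622, 0.545 and 0.670 CPM in control livers. The AIH range lay above the controls but overlapped the asymptomatic range, since asymptomatic 2 exceeded AIH 5. The log2 fold changes were 2.94 ± 0.67 against controls (adjusted p = 0.00585, edgeR) and 2.78 ± 0.61 against asymptomatic livers (adjusted p = 0.00352, edgeR).

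Spi1 encodes PU.1, the ETS factor of myeloid and B cell development. Its level was 28.1, 71.7, 37.5, 13.5 and 34.9 CPM in AIH livers, 5.85, 5.53, 8.47, 7.24 and 8.18 CPM in asymptomatic livers and 5.26, 8.14, 9.75 and 6.20 CPM in controls. Every AIH library was above every other, with AIH 2 highest and AIH 4 lowest. Spi1 rose by 2.34 ± 0.37 (log2) against controls (adjusted p = 0.000557, edgeR) and by 2.40 ± 0.35 against asymptomatic livers (adjusted p = 0.000172, edgeR).

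Runx1, required for the emergence of definitive blood stem cells, was the steadiest of the 9 genes among AIH livers. It measured 6.96, 6.08, 7.17, 6.83 and 7.47 CPM in AIH, 1.04, 1.47, 1.32, 2.13 and 2.59 CPM in asymptomatic and 1.46, 0.848, 2.12 and 0.391 CPM in control livers. The highest AIH value was 1.23 times the lowest, against 2.49 times in asymptomatic and 5.43 times in control livers, where counts per library were as low as 7. Runx1 rose by 2.51 ± 0.40 (log2) against controls (adjusted p = 0.000493, edgeR) and by 2.01 ± 0.36 against asymptomatic livers (adjusted p = 0.000846, edgeR).

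Runx3 promotes the cytotoxic programme of CD8 T cells and silences Cd4 in them. Levels were 5.14, 3.01, 5.07, 6.71 and 2.22 CPM in AIH, 0.0650, 0.647, 0.0627, 0.129 and 0.200 CPM in asymptomatic and 0.117, 0.452, 0.708 and 0.335 CPM in control livers. Outside AIH the gene was close to the limit of detection, with 18 counts over the 5 asymptomatic libraries and 29 over the 4 controls. Its log2 fold change was 3.43 ± 0.59 against controls (adjusted p = 0.0010, edgeR) and 4.26 ± 0.59 against asymptomatic livers (adjusted p = 0.000118, edgeR).

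Runx1, Runx3 and their relative Runx2, known from bone formation, share a stretch in their distal RefSeq promoters (GRCm38.p6), shown because all 3 transcripts rose in AIH. The capitals mark the RUNX core ACCACA, the reverse complement of TGTGGT, which occurs in a pair in each. The stretches lie at chr16:92826025-92826054 on the minus strand, chr4:135120503-135120532 on the plus strand and chr17:44814583-44814612 on the minus strand.
Runx1: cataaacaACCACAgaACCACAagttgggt
Runx3: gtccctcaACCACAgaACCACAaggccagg
Runx2: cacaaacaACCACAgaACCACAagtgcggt
The longest run common to all 3 was 18 bases. Both cores at this spacing, on either strand, were found in 7 of 32851 RefSeq promoters (0.0213%), each promoter running 250 bases before to 50 bases after a start site. Counted from the start site, the stretch began at -142 in Runx3, at 21 in Runx1 and at 16 in Runx2. A match of letters is a description and not a measured binding site.

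The promoter table held entries for 6 of the 9 genes: Ikzf1, Runx1, Runx3, Tcf7, Lef1 and Bach2. The 250 bases before the distal Runx3 start site (chr4:135120395-135120644, plus strand) are given because Runx3 had the largest fold change against asymptomatic livers, with the RUNX cores and 1 Ikaros core (TGGGAA) in capitals.
Runx3 promoter: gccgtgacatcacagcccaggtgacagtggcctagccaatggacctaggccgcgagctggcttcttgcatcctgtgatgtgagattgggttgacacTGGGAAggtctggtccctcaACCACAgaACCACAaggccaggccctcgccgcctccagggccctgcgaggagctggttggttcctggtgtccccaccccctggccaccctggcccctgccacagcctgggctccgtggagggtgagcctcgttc
Motifs were searched on both strands and did not overlap one another here. The Ikaros core was present in 25.6% of the 32851 RefSeq promoters searched and the RUNX core in 16.8%. The PU.1 core GAGGAA was present in 28.3%, the TCF/LEF core CTTTGA in 16.0% and the Bach2/AP-1 element TGAGTCA in 5.20%. Single matches to the Ikaros core were also found in 3 Lef1 entries, 2 of which overlap and share the match. The PU.1 core was found in 1 promoter each of Runx1, Tcf7 and Lef1. The TCF/LEF core had 2 matches in 1 Lef1 entry and 1 match in the Bach2 entry, and the Bach2/AP-1 element had none in any entry of the 6 genes.

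Tcf7 and Lef1 encode related HMG-box factors that act with β-catenin and Groucho/TLE corepressors. Tcf7 measured 16, 8.07, 8.86, 18 and 6.77 CPM in AIH, 4.23, 6.94, 6.71, 6.66 and 8.45 CPM in asymptomatic and 5.49, 12.4, 7.41 and 6.42 CPM in control livers. Only AIH 1 and AIH 4 exceeded every library of the other groups. The log2 fold change was 0.54 against controls (95% interval -0.09 to 1.17, adjusted p = 0.26, edgeR) and 0.80 against asymptomatic livers (95% interval 0.21 to 1.40, adjusted p = 0.0598, edgeR). The second value passed the threshold without AIH 2 (0.91, adjusted p = 0.0487, edgeR) or without AIH 5 (0.95, adjusted p = 0.0334, edgeR), and with DESeq2 (0.78, adjusted p = 0.0441), limma-voom with sample quality weights (0.98, adjusted p = 0.0257) or library totals alone (1.01, adjusted p = 0.0223, edgeR). It did not pass with sex as a term (0.84, adjusted p = 0.209, edgeR) or with the share of reads not aligned as a term (1.13, adjusted p = 0.252, edgeR), and without AIH 4 it was 0.59 (adjusted p = 0.148, edgeR), the lowest value with 1 library left out.

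Lef1 had 32, 10, 6, 28 and 4 counts in AIH livers 1 to 5, 1, 5, 2, 1 and 4 counts in asymptomatic livers and 0, 4, 3 and 3 counts in controls. These correspond to 1.54, 0.486, 0.350, 1.57 and 0.202 CPM in AIH, 0.0650, 0.294, 0.125, 0.0646 and 0.266 CPM in asymptomatic and 0, 0.226, 0.163 and 0.168 CPM in control livers. AIH 1 and AIH 4 carried most of the counts, and AIH 5 lay within the range of the other groups. An exact two-sided permutation test of mean CPM gave p = 0.0317 for AIH against controls and p = 0.0317 for AIH against asymptomatic livers (both 0.0476 adjusted over 3 comparisons). For asymptomatic livers against controls the same exact test gave p = 0.730. Fitted without the count filter, where 8.63% of 26600 genes were called higher in AIH than in controls, Lef1 differed by 2.46 ± 0.76 (log2, adjusted p = 0.0426, edgeR) against controls and by 2.23 ± 0.70 against asymptomatic livers (adjusted p = 0.0347, edgeR).

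Bach2, a repressor of the plasma cell gene Prdm1, was the only gene of the 8 tested with a lower mean in AIH than in asymptomatic livers. It measured 9.70, 3.99, 4.37, 20.8 and 5.30 CPM in AIH, 14.4, 9.47, 12.9, 16.2 and 22.4 CPM in asymptomatic and 6.78, 11.4, 6.75 and 9.16 CPM in control livers. AIH 2, AIH 3 and AIH 5 lay below every other library, while AIH 4 was among the highest. The log2 fold change against asymptomatic livers was -0.77 (95% interval -1.57 to 0.03, adjusted p = 0.167, edgeR), and passed the threshold without AIH 4 (-1.36, adjusted p = 0.0045, edgeR) and with limma-voom with sample quality weights (-0.92, adjusted p = 0.0353). Within males it was 0.47, where AIH 4 is the single AIH liver, and 0.43 with the share of reads not aligned as a term, so its direction was not settled. Against controls the log2 fold change was 0.05 (95% interval -0.80 to 0.89, adjusted p = 0.951, edgeR), and -0.54 without AIH 4. An antisense gene, Bach2os, shares 537 exon bases with Bach2. It had 225 counts over the 14 libraries, against 2617 for Bach2, and whether the authors counted by strand is not given in the sources used here.

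**Figure D2:**
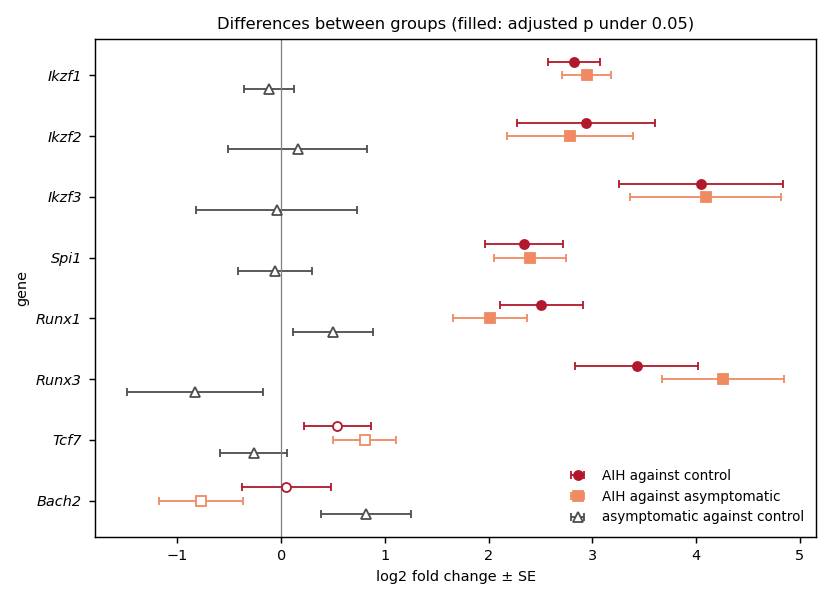
Log2 fold change ± SE (horizontal axis) of the 8 genes tested, for AIH against control, AIH against asymptomatic and asymptomatic against control livers; filled symbols passed an adjusted p of 0.05. The first 6 genes lie between 2.01 and 4.26 in both AIH comparisons, and no asymptomatic against control value is filled.

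In asymptomatic against control livers 0 of the 8 genes passed the test, beside 0.0% of all genes tested. None of the 8 had an unadjusted p under 0.05 with edgeR or DESeq2, and 2 did with limma-voom with sample quality weights. Of all 14638 genes, 1542 did with edgeR, 1686 with DESeq2 and 4131 with limma-voom with sample quality weights. Over all genes, DESeq2 called 118 and limma-voom with sample quality weights 1299, and neither called any of the 8. Bach2 had the highest log2 fold change (0.82, 95% interval -0.03 to 1.67) and Runx3 the lowest (-0.83, 95% interval -2.11 to 0.45). For Ikzf1 the interval ran from -0.58 to 0.35, and for Ikzf3 from -1.56 to 1.48. These intervals leave room for sizeable differences in the genes with few counts.

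The groups differed in sex, so the 6 higher genes were also compared with sex as a term and within each sex. With sex as a term all 6 passed the test in both AIH comparisons, but Spi1 against asymptomatic livers was then at 1.43 (log2, adjusted p = 0.0235, edgeR), in place of 2.40. Over all 14638 genes, 1890 were then called higher against controls and 1222 against asymptomatic livers. Within females (4 AIH, 2 control livers) 5 of the 6 passed, beside 1379 of all 14638 genes called higher. Ikzf2 was there at 2.68 (log2, adjusted p = 0.0654, edgeR). Within males AIH 4 is the single AIH liver, so the spread of male AIH livers was not measured and only values are given. The 6 genes were higher in AIH 4 by 1.24 (Spi1) to 5.12 (Ikzf3) on the log2 scale against 2 male controls, and by 0.94 (Spi1) to 5.13 (Ikzf3) against 5 asymptomatic males. With the share of reads not aligned as a term, 4 of the 6 passed against asymptomatic livers, beside 544 of all 14638 genes called higher. Ikzf2 was then at 2.65 (adjusted p = 0.068, edgeR) and Spi1 at 1.59 (adjusted p = 0.299, edgeR).

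Under TMM the all-gene median of the log2 fold change was -0.01 for AIH against control and -0.03 for AIH against asymptomatic livers, and scaling by library totals alone gave 0.14 and 0.17. Calls over all genes were then 2675 higher and 304 lower, in place of 2284 higher and 890 lower, in the first comparison, and 3533 higher and 442 lower, in place of 2796 higher and 1559 lower, in the second. The 6 genes kept their direction and their calls under that scaling. The 6 AIH ranges lay above every control library, where 13.2% of all genes did so. Above every asymptomatic library lay 5 of them, all but Ikzf2, where 12.3% of all genes did so. Runx3 is in both counts and passed the filter only through its AIH libraries, so its separation was partly built in.

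Within AIH the genes fell into different orders across the 5 livers. AIH 4 was highest and AIH 1 second for 7 of the 9 genes: Ikzf1, Ikzf2, Ikzf3, Runx3, Tcf7, Lef1 and Bach2. The summed B cell list followed the same order at the top, at 177, 75.7, 31.9, 221 and 28.8 CPM in AIH 1 to 5. T cell genes summed to 144, 90.0, 37.6, 109 and 32.2 CPM. Of the 9 genes, Spi1 alone peaked in AIH 2, at 193% of its AIH mean, and was lowest in AIH 4, at 36.5%. The myeloid list was also highest in AIH 2 and lowest in AIH 4, at 1196, 2299, 1397, 1148 and 1744 CPM. A peak in AIH 2 was not particular to Spi1 and myeloid genes. Summed pan-leukocyte markers were at 1318, 2166, 1197, 1283 and 1547 CPM, and the NK cell and Runx3-linked cytotoxic lists were also highest in AIH 2. Runx1 stayed between 88.0% and 108% of its mean while the granulocyte precursor list ranged from 21.8 CPM in AIH 4 to 1375 CPM in AIH 3. That list also holds genes of mature neutrophils, such as S100a8 and S100a9, so its sum is not of precursors alone. AIH 4 is also the only male of the group, and the part of cell makeup or sex in these orders was not tested.

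**Figure D3:**
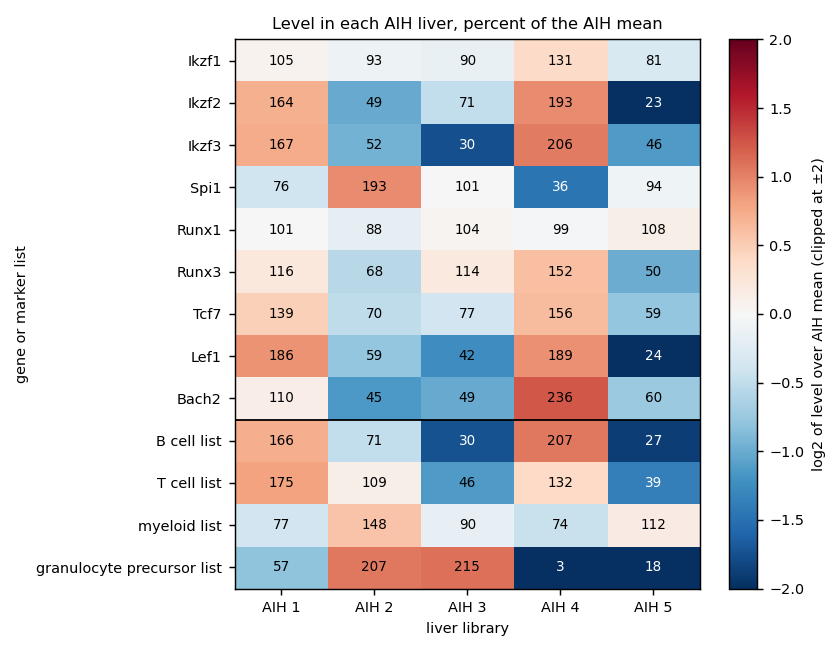
Level of the 9 genes and of 4 summed marker lists in each AIH liver (columns), as percent of the mean of the 5 AIH livers (numbers) and its log2 (colour, cut at ±2). AIH 1 and AIH 4 are above 100% for 7 genes and for the B and T cell lists. Spi1 and the myeloid list share AIH 2 as highest, as do summed pan-leukocyte markers, which are not drawn. Runx1 runs from 88.0% to 108%.

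Leukocyte transcripts as a whole were higher in AIH. The 18 pan-leukocyte markers, among them Ptprc, the gene of CD45, summed to 1197 to 2166 CPM in AIH, 277 to 339 CPM in asymptomatic and 271 to 424 CPM in control livers, and all 18 rose in both AIH comparisons. T cell genes rose in 13 of 14, B cell genes in 7 of 8, myeloid genes in 10 of 10 and the granulocyte precursor list in 9 of 9, in each AIH comparison. Ctsg, a granule protease of neutrophil precursors, had 0 counts in all asymptomatic and control livers, where 3 counts over the group would be 0.0381 and 0.0422 CPM. Progenitor and megakaryocyte genes rose in 6 of 7 in both comparisons. NK cell genes rose in 2 of 4 against controls and in 4 of 4 against asymptomatic livers. The part of these cell types in the changes of the 9 genes was not tested on the CPM scale.

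A second fit therefore used the summed pan-leukocyte counts as the library size, which gives each gene per unit of leukocyte transcripts. On that scale 87.4% of all genes were called lower and 2.32% higher in AIH than in controls. Ikzf1 was higher by 0.68 ± 0.28 (log2, adjusted p = 0.0289, edgeR), Ikzf3 by 1.94 ± 0.73 (adjusted p = 0.0200, edgeR) and Runx3 by 1.38 ± 0.60 (adjusted p = 0.0379, edgeR). Against asymptomatic livers, with 2.53% of all genes called higher, these were 0.71 ± 0.26, 2.0 ± 0.68 and 2.15 ± 0.60 (adjusted p = 0.0163, 0.0110 and 0.00279, edgeR). Runx3 passed the filter only through its AIH libraries, so its difference was partly built in on this scale too. Its values outside AIH rest on 18 counts over the asymptomatic and 29 over the control libraries. The 3 calls against controls rested on the choice of denominator and on single livers. With Ptprc alone as denominator none of the 3 passed, with the geometric mean of the list only Ikzf3 did, and with the T cell list only Ikzf3 did. Without AIH 1 or without AIH 4 none passed. Ikzf1 against controls was also lost without control 1 (0.52, adjusted p = 0.102, edgeR), and Runx3 without control 1, 2 or 4 or without AIH 3 (1.11 to 1.49, adjusted p = 0.0518 to 0.107, edgeR). Against asymptomatic livers Ikzf1 was lost with Ptprc alone (0.21, adjusted p = 0.491, edgeR), the geometric mean (0.42, adjusted p = 0.161, edgeR), the T cell list (0.63, adjusted p = 0.278, edgeR) and without AIH 4 (0.54, adjusted p = 0.062, edgeR).

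Spi1 per unit of leukocyte transcripts overlapped between the groups, at 21.3, 33.1, 31.3, 10.6 and 22.6 per 1000 pan-leukocyte counts in AIH, 21.1, 16.32, 25.1, 25.7 and 28.3 in asymptomatic and 18.86, 27.5, 23 and 22.9 in control livers. Its log2 difference was 0.04 (95% interval -0.52 to 0.61) against controls and 0.03 (95% interval -0.50 to 0.56) against asymptomatic livers. Runx1 differed by 0.40 (95% interval -0.38 to 1.18) against controls and by -0.23 (95% interval -0.95 to 0.48) against asymptomatic livers. For Ikzf2 the values were 0.81 (95% interval -0.50 to 2.12) and 0.67 (95% interval -0.54 to 1.89). None of these passed the test, and the intervals do not show that the groups are alike.

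Tcf7 per 1000 pan-leukocyte counts was 12.1, 3.72, 7.40, 14 and 4.37 in AIH, 15.2, 20.5, 19.9, 23.7 and 29.2 in asymptomatic and 19.7, 41.8, 17.47 and 23.7 in control livers. No AIH value reached the lowest of either other group, and the share of all genes with such a gap was not counted. It was lower by -1.62 ± 0.38 (log2, adjusted p = 0.000701, edgeR) against controls and by -1.38 ± 0.36 (adjusted p = 0.00185, edgeR) against asymptomatic livers. Bach2 was lower by -2.12 ± 0.50 (adjusted p = 0.000775, edgeR) and by -2.96 ± 0.50 (adjusted p = 2.57e-05, edgeR), and both genes were called lower with Ptprc alone, with the geometric mean and with T cell transcripts as denominator. Since 87.4% of all genes against controls and 86.2% against asymptomatic livers were called lower on this scale, these 2 calls were shared with most genes measured. Per 1000 T cell list counts, Tcf7 was 111, 89.7, 235, 165 and 210 in AIH, 260, 720, 245, 720 and 632 in asymptomatic and 441, 735, 277 and 528 in control livers. The log2 difference was -1.61 ± 0.59 against controls (adjusted p = 0.0092, edgeR) and -1.67 ± 0.57 against asymptomatic livers (adjusted p = 0.00466, edgeR), where 78.2% and 81.1% of all genes were called lower and 2.25% and 1.91% higher. Which cells hold Tcf7 and Bach2 transcripts in livers without hepatitis cannot be told apart in whole tissue.

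**Figure D4:**
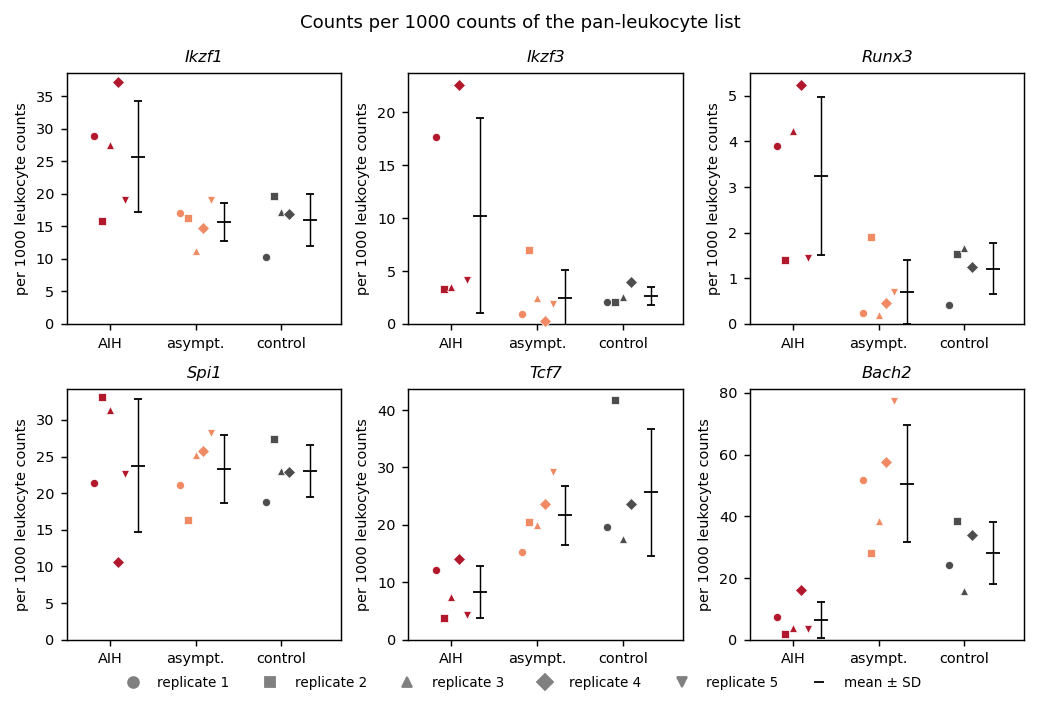
Counts of 6 genes per 1000 counts of the pan-leukocyte list (vertical axes, starting at 0) in AIH, asymptomatic and control livers; each point is 1 library, bars give mean ± SD and are cut at 0. Tcf7 in AIH lies below both other groups, from 3.72 to 14, Spi1 overlaps across all groups, and AIH 1 and AIH 4 lead for Ikzf3. On this scale 87.4% of all genes were called lower in AIH than in controls and 86.2% than in asymptomatic livers. The share of all genes with a gap like that of Tcf7 was not counted.

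Compared per kilobase of exon, the order of levels differed between the groups. In AIH the mean levels were 13.8 CPM per kilobase for Spi1, 6.32 for Ikzf1, 4.39 for Tcf7, 1.60 for Ikzf3, 0.889 for Bach2, 0.886 for Runx3, 0.574 for Runx1, 0.423 for Ikzf2 and 0.0942 for Lef1, and each neighbouring pair overlapped. Asymptomatic livers gave 2.62 for Spi1, 2.51 for Tcf7, 1.52 for Bach2, 0.820 for Ikzf1 and at most 0.142 for the other 5 genes, with a gap beyond the spread below Ikzf1. Controls gave 3.02 for Tcf7, 2.72 for Spi1, 0.890 for Ikzf1, 0.858 for Bach2 and at most 0.10 for the other 5, with gaps beyond the spread below Spi1, below Bach2 and above Lef1. Tcf7 thus ranked first or second outside AIH and behind both Spi1 and Ikzf1 in it.

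Some close relatives and partners of the 9 genes changed. Of 10 measured, 3 were higher and 0 lower in AIH than in controls, and 4 higher and 0 lower than in asymptomatic livers, with median log2 fold changes of 0.15 and 0.17 beside -0.01 and -0.03 over all genes. Runx2 rose by 3.95 ± 0.77 (log2, AIH against controls), Spib, a PU.1 relative of B and plasmacytoid dendritic cells, by 4.80 ± 0.97, and Spic, a PU.1 relative of red pulp macrophages, by 2.54 ± 0.55 (adjusted p = 0.00233, 0.0029 and 0.00429, edgeR). The fourth against asymptomatic livers was Mafk, a small Maf partner of Bach proteins (0.47 ± 0.16, adjusted p = 0.0452, edgeR), named after its value was seen. Cbfb, the partner of all RUNX proteins, was at 34.1 ± 0.93 CPM in AIH, 37.5 ± 17.1 CPM in asymptomatic and 22.8 ± 5.62 CPM in control livers (SD) and did not pass (adjusted p = 0.148 against controls, edgeR). Ikzf4, Ikzf5, Tcf7l1, Tcf7l2 and Bach1 did not pass in either AIH comparison.

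Among 39 tested transcription factors of other blood lineages, 20 were higher and 1 lower in AIH than in controls (median log2 fold change 1.66), and 26 higher and 3 lower than in asymptomatic livers (median 1.84). Irf8, a factor of monocytes and dendritic cells, averaged 42.0 ± 12.4 CPM in AIH, 8.53 ± 1.21 CPM in asymptomatic and 7.59 ± 1.54 CPM in control livers (SD). Prdm1, which directs plasma cell and effector T cell fate, averaged 4.80 ± 0.86, 0.772 ± 0.157 and 1.13 ± 0.34 CPM in the same groups. Fli1, an ETS factor of blood and endothelium, rose by 1.75 ± 0.22 (log2) against controls (adjusted p = 9.46e-05, edgeR). The single lower gene against controls was Zbtb7b, which directs CD4 T cell fate and was most abundant outside AIH, at 54.0 ± 6.33 CPM in AIH, 82.6 ± 9.46 CPM in asymptomatic and 79.6 ± 12.9 CPM in control livers (SD).

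Corepressors were counted next. Of 12 NuRD genes, 1 was higher in AIH than in controls, Hdac1 (0.54 ± 0.16 on the log2 scale, adjusted p = 0.0276, edgeR), a histone deacetylase. Against asymptomatic livers 1 was higher and 1 lower, Mta3 (0.70 ± 0.23) and Rbbp4 (-0.56 ± 0.20). Of 5 Groucho/TLE genes and β-catenin, 1 was higher in both comparisons, Tle3, at 29.3 ± 8.98 CPM in AIH, 17.6 ± 1.61 CPM in asymptomatic and 16.1 ± 5.87 CPM in control livers (SD). Median log2 fold changes against controls were 0.06 for NuRD and -0.06 for the TLE list.

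The lists of known targets overlap cell type markers. All 14 PU.1 targets of myeloid cells rose in both AIH comparisons (median log2 fold change 2.39 in each), and those with the smallest p against controls were Ncf1 (2.75 ± 0.28 against controls) and Cybb (2.05 ± 0.24), subunits of the phagocyte oxidase, and the kinase gene Btk (2.75 ± 0.32). Of 9 naive and memory T cell genes linked to TCF1 and LEF1, 8 rose in both comparisons, with the survival gene Bcl2 at 1.81 ± 0.25 on the log2 scale against controls. Cytotoxic genes linked to Runx3 rose in 7 of 9 against controls and 9 of 9 against asymptomatic livers. Within AIH the sum of this list did not share the order of Runx3. It was 35.0, 83.3, 25.5, 31.2 and 23.7 CPM in AIH 1 to 5, highest in AIH 2, while Runx3 was highest in AIH 4. The chemokine gene Ccl5 was at 3.32 ± 0.49 and Cd8a, a subunit of the CD8 coreceptor, at 2.84 ± 0.49 against controls. Of 7 plasma cell genes that Bach2 is known to restrain directly or indirectly, 4 rose against controls, among them Irf4 (3.50 ± 0.63) and Mzb1 (5.78 ± 1.06). Against asymptomatic livers 4 rose and Xbp1, a secretory pathway factor also made by hepatocytes, was lower (-1.16 ± 0.35, adjusted p = 0.0217, edgeR). In asymptomatic against control livers 0 genes of any list passed the test.

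Markers of other liver cells gave the following counts. Of 8 hepatocyte genes, 0 passed against controls and 3 were lower against asymptomatic livers. Cholangiocyte genes were higher in 1 of 6 and endothelial genes in 2 of 7 in both AIH comparisons. Stellate and fibroblast genes rose in 4 of 8 against controls and in 6 of 8 against asymptomatic livers, and their part in the changes of the 9 genes was not tested.

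The genes most like each factor across the 14 libraries were sought among 13014 genes, by the root mean square difference of centred log2 CPM, where 0 would be an identical pattern. Spi1 was closest to C1qb and C1qc, complement genes of macrophages, at 0.20 and 0.21. Ikzf1 was closest to Slc38a1 (0.24), an amino acid transporter gene, and Syk (0.29), a kinase gene of immune receptors. Ikzf3 lay nearest to Fcmr (0.61), the IgM receptor gene, and Slamf6 (0.65). The nearest genes to Runx1 were Iqgap3 (0.46) and Adcy7 (0.49), to Ikzf2 Tmem45a and Slain1 (both 0.53), and to Runx3 Sema4d (0.71) and Gpnmb (0.73). For Tcf7 they were Xxylt1 (0.34) and Sema4b (0.35), and for Bach2 Prpf6 (0.39) and Gemin5 (0.41). Distances depend on how much a factor itself varies, so they cannot be ranked between factors. The median distance over the genes compared was 0.72 for Tcf7 and 0.86 for Bach2, but 2.33 for Ikzf3 and 2.20 for Runx3. These distances are descriptions over libraries that share the group differences, and no test was made.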

How the data were processed

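Total RNA of 14 mouse livers was sequenced by the authors, who deposited raw counts of reads per Ensembl gene, 1 file per library, without scaling. The submitters' processing notes list R 4.0, edgeR, HTSeq 0.9.0, HISAT2 2.1.0, cutadapt 1.12 and FastQC 0.11.5. The builds named there are GRCh38 and GRCm38. The role of each, the annotation release and the strand setting are not given in the sources used here. The counter's summary rows were left out of library sizes and tests; of each library's reads they put 3.23% to 9.27% as not aligned, 28.8% to 37.0% as not unique, 1.38% to 3.05% as ambiguous and 2.29% to 3.29% outside any gene. Symbols, exon lengths and overlaps came from GENCODE M21 (GRCm38), in which 51719 of 51912 gene IDs were found.

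The deposited counts were filtered (filterByExpr, 14638 genes kept), scaled with TMM and fitted in 1 edgeR 4.0.16 quasi-likelihood model of the 14 libraries (R 4.3.3, limma 3.58.1), with Benjamini-Hochberg adjustment and a threshold of 0.05. Intervals are normal 95% intervals. A second fit used the summed counts of the pan-leukocyte list as library size. DESeq2 1.42.0, limma-voom with sample quality weights, other scalings, filters, terms for sex and for reads not aligned, and leaving out each library were tried. The scripts were tested on simulated data. The members and the 19 gene lists were chosen with earlier results of these data known. Genes named from a list are at most the 3 with the smallest p in AIH against control. Cbfb, Mta3, Rbbp4, Xbp1, Zbtb7b and Ctsg were named after their values were seen. Nothing in the labels beyond 1 library per mouse says how animals were housed or processed, so p-values measure the spread between these samples. Counts cover reads without molecular identifiers, so their precision covers counting error only. Promoters came from RefSeq (GRCm38.p6), with those of 1 chromosome, which holds none of the genes described here, left out of the search.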

Additional observations from a re-analysis of the deposited data

Results flagged for a closer look

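Runx3 in asymptomatic liver 2 measured 0.647 CPM, while the other 4 asymptomatic livers measured 0.0627 to 0.200 CPM. Its gap to the nearest liver was 0.766 of the whole range of the group, above the limit of 0.71 for 5 samples. Over the 27 sets of values examined this way, about 1.35 such cases are expected by chance. The value rests on 11 counts. Ikzf2 and Ikzf3 were also highest in that liver among asymptomatic livers, at 1.82 and 2.35 CPM. So was the summed B cell list, at 22.0 CPM against 3.36 to 14.1 CPM, but not the T cell list, at 9.65 CPM. That library had 4.93% of its reads not aligned, against 7.80% to 9.27% in the other 4. The source of these differences was not tested.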

How the results depend on the processing

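No paired analysis was possible because the replicate numbers follow accession order only. The count of the 9 genes called stayed within 1.5 times its value in the 3 level comparisons under every alternative tried. Only 8 of them were tested in most settings. Against asymptomatic livers 6 were called, but 4 with the share of reads not aligned as a term. With limma-voom with sample quality weights 7 were higher and 1 lower there, beside 3229 higher and 2286 lower of all 14638 genes. The count of all genes called did not always stay within 1.5 times its value. Against controls it was 3174, but 1746 within females and 447 within males (where AIH 4 is the single AIH liver, assumed to vary like the other groups). Against asymptomatic livers it was 4355, but 1372 with sex as a term, 562 with the share of reads not aligned as a term and 812 within males. Between asymptomatic and control livers it was 0, but 118 with DESeq2, 1299 with limma-voom with sample quality weights, and 0 to 13 when each library was left out, with 13 without asymptomatic 2. Relative to pan-leukocyte transcripts, 5 genes were called in AIH against control, but 2 with Ptprc alone, 3 with the geometric mean, 3 with T cell transcripts (an alternative added after seeing the data, as were the splits by sex), and 2 to 5 when each library was left out. The lowest counts came without AIH 1 or AIH 4 (2 each), and 3 were called without control 1. Over all 14638 genes, 13137 were called on that scale, 13413 with Ptprc alone, 13374 with the geometric mean and 11774 with T cell transcripts. The cause of these shifts was not tested, beyond the fewer samples in the splits by sex.

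Directions turned only for log2 fold changes that had not passed the test. Bach2 against controls was -0.10 with limma-voom with sample quality weights, -0.63 within females and -0.54 to 0.24 when each library was left out. Bach2 against asymptomatic livers was 0.43 with reads not aligned as a term and 0.47 within males. In asymptomatic against control livers, Ikzf1 was 0.35 within males, Ikzf2 -0.37 with limma-voom with sample quality weights and -0.26 with sex as a term, Ikzf3 0.081 with reads not aligned as a term, Tcf7 0.15 within males and Bach2 -0.42 with reads not aligned as a term. Spi1 was 0.51 with sex as a term, 0.58 with reads not aligned as a term and 0.30 within males. With each library left out, Ikzf1 ran from -0.30 to 0.10, Ikzf2 from -0.58 to 0.37, Ikzf3 from -0.99 to 0.25, Spi1 from -0.17 to 0.11 and Tcf7 from -0.38 to 0.052. Relative to pan-leukocyte transcripts, Spi1 against controls was -0.35 with Ptprc alone, -0.30 with the geometric mean, -0.24 with sex as a term and -0.11 to 0.23 with each library left out. Spi1 against asymptomatic livers was -0.35 with Ptprc alone, -0.29 with the geometric mean, -0.62 with sex as a term and -0.12 to 0.22 with each library left out. Runx1 against controls was -0.091 with Ptprc alone, and Ikzf2 against asymptomatic livers was -0.0099 with T cell transcripts. Depth limits Lef1, Runx3 and Ikzf2 outside AIH most, where a library holds few counts.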
